A study of Homo sapiens with 45 samples.

Results

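The genes described here are 36 genes of cholesterol and fatty acid synthesis and of their control, taken by name out of the 60675 genes counted in this series. They comprise 7 genes of the mevalonate pathway, 3 of the steps from squalene synthesis to lanosterol and 8 of the steps between lanosterol and cholesterol. A further 5 belong to the sterol regulatory element binding protein (SREBP) system, 4 to fatty acid synthesis and 4 to fatty acid elongation and desaturation. The others are the phosphatidate phosphatase gene LPIN1 and 4 genes of sterol transport or targets of the liver X receptors (LXR). All 36 passed the filter on low counts and were tested. The cells were HEK293F, a form of the human embryonic kidney cell line HEK293 that grows in suspension, and they received 3 plasmids by transient transfection to make recombinant adeno-associated virus. Poly(A)-selected RNA was sequenced from the clonal lines AC1.112, AC1.203 and AC1.230, each of which is 1 clone, from the polyclonal line AC1P and from 293F, at 0 h (before transfection), 24 h and 72 h. The labels give the genotype of all 5 lines as wild type, and each line and time has 3 libraries, 45 in all. The study set out to compare times after transfection and lines that make more or less virus, but the labels do not say which lines those are. Mock-transfected cells were not analysed here, so the plasmids, the transfection reagent and the hours in culture cannot be told apart in a difference over time.

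Cells build cholesterol and fatty acids from acetyl-CoA, the sterols by way of mevalonate, squalene and lanosterol. SREBF1 and SREBF2 encode the SREBP transcription factors, which SCAP escorts out of the endoplasmic reticulum when sterols are scarce and which the INSIG proteins hold back when sterols are plentiful, and INSIG1 is itself transcribed by SREBP. The LXR nuclear receptors respond to oxidised sterols and raise the exporters ABCA1 and ABCG1 and the ubiquitin ligase MYLIP, which removes lipoprotein receptors.

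Libraries held 24727028 to 59837051 counts (median 39247411), and the 36 genes took 0.4351% to 0.8444% of it. Levels are in CPM, counts scaled to library size with TMM factors. The marker medians and summed levels given next were scaled to total counts alone, without TMM factors. Of 8 marker genes of HEK293 cells, 7 or 8 had a median of at least 1 CPM at each time. Their summed levels were 1250 to 6560 CPM in a library. None of the 4 markers each of hepatocytes, adipocytes, blood cells and endothelium reached that median at any time, while the fibroblast markers COL1A1 and COL3A1 did at all 3 times and LUM at 0 h and 72 h (summed level of the 4 fibroblast markers 12.9 to 141 CPM). The part of the fibroblast markers in the results was not tested. The lines were unlike in the HEK293 markers. At 0 h NEFM averaged 1.7 CPM in 293F and 3660 to 4410 CPM in the AC1 lines (with TMM factors). NEFL averaged 125 CPM in 293F and 1140 to 1460 CPM in the AC1 lines. KRT8 went the other way, with 197 CPM in 293F and 28 to 66.1 CPM in the AC1 lines. So did PAX2, with 7.48 CPM in 293F and 0.466 to 1.43 CPM in the AC1 lines. Whether the 3 libraries of a group are separate cultures is not stated in the labels, and the spread that p-values rest on may therefore be technical. Some counts are uncertain because genes overlap. In GENCODE release 29 on GRCh38, 82.1% of the exon bases of CYP51A1 overlap other genes on its own strand, which matters under any strand setting. No source used here gives the strand setting of the counting, and 69.7% of the exon bases of ACAT2 overlap antisense genes. Antisense genes also overlap 18.6% of the exon bases of FDPS, 15% of those of HMGCS1 and 14.8% of those of IDI1. HSD17B7 has near-identical pseudogenes, so how its reads were divided is uncertain too.

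The promoters of INSIG1, HMGCS1, NSDHL and FDPS are shown because INSIG1 and HMGCS1 had the 2 lowest mean changes at both 24 h and 72 h, FDPS the next at 24 h and NSDHL the next at 72 h, and that of SREBF2 because it was the only member whose window held the sterol element searched for, a choice made after the matches were seen. Each run is the 250 bases before the transcription start in RefSeq on GRCh38.p14, written 5' to 3'. For INSIG1 the bases just after this start were not found in a transcript of GENCODE release 29. For the other printed runs they were. They lie at chr7:155297628-155297877 on the plus strand (INSIG1), chr5:43313413-43313662 on the minus strand (HMGCS1, the first of 2 listed starts), chrX:152830813-152831062 on the plus strand (NSDHL), chr1:155308616-155308865 on the plus strand (FDPS) and chr22:41832855-41833104 on the plus strand (SREBF2). Capitals mark CCAAT, the core bound by NF-Y, on either strand (ATTGG is its reverse complement), and in SREBF2 also TCACNCCAC, a form of the sterol regulatory element.
INSIG1: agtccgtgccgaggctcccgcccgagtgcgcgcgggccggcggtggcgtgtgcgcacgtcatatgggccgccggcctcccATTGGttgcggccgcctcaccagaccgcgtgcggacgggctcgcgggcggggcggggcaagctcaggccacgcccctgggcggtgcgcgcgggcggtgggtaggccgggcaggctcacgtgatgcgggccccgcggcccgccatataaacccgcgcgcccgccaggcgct
HMGCS1: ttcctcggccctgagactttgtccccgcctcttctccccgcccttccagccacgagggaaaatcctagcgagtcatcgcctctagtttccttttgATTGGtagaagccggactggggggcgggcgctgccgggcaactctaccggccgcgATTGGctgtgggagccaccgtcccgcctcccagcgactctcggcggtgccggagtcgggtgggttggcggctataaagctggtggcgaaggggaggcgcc
NSDHL: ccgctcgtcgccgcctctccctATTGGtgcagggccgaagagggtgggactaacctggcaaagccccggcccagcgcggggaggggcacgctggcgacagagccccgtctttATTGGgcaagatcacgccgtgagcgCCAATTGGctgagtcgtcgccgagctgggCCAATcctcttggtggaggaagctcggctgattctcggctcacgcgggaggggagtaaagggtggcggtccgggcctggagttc
FDPS: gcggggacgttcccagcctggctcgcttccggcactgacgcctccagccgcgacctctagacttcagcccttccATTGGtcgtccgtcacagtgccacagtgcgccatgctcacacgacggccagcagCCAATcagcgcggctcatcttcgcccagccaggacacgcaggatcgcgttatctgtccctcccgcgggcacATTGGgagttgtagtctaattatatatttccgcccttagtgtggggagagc
SREBF2: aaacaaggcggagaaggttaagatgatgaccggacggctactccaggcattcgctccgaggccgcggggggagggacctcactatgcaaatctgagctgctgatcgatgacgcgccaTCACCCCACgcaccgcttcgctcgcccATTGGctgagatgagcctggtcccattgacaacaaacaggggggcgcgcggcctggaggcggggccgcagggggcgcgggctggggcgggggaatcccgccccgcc
In the full windows, which run to 50 bases after the start, CCAAT was found on either strand in 22 of the 31 members with an entry and in 39.72% of 27305 genes. The letters TCACNCCAC were found in SREBF2, where they begin 133 bases before the start, and in 1.39% of genes. GGGCGG, the core bound by Sp1, was in 30 of 31 members and 48.3% of genes. The E-box CACGTG was in 5 of 31 members (ABCA1, INSIG1, LSS, SC5D and SCAP) and 8.77% of genes. All 4 motifs were searched on both strands, and the 2 marked runs of SREBF2 do not overlap. A match describes the letters of the window and is not a binding site.

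Before transfection the desaturase gene SCD, which makes monounsaturated fatty acids, had the highest level per length of the 36 genes, 180 CPM per kilobase of exon in the mean over the 5 lines. HMGCS1, the synthase for the HMG-CoA that mevalonate is made from, had 146 CPM per kilobase and INSIG1 had 139. ACLY, which makes cytosolic acetyl-CoA out of citrate, FASN, the fatty acid synthase, and SQLE, the epoxidase that commits squalene to sterols, followed with 91.2, 72.1 and 72.1 CPM per kilobase. At the low end were ABCA1 with 0.0822 and ABCG1 with 0.195 CPM per kilobase. SREBF2 stood at 34.1 and SCAP at 26.8 CPM per kilobase, against 2.26 for SREBF1 and 4.15 for INSIG2.

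The first comparison asked how the genes stood 24 h after transfection. In the mean over the 5 lines 22 of the 36 genes were lower at 24 h than at 0 h and 5 were higher. Over all 21242 genes tested 53.4% were called at that time, 27.6% lower and 25.8% higher. The median log2 fold change was -0.17 for the 36 genes and -0.01 for all genes. A call is an adjusted p under 0.05 in edgeR's quasi-likelihood test, adjusted over all genes tested. In RNA of whole cultures, fewer cells with a transcript and less of it per cell cannot be told apart.

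INSIG1 changed most at 24 h and was the 1 member past 2-fold, which 3.77% of all genes passed. It ranged from 176 to 296 CPM (median 210) in the 15 libraries of 24 h and from 217 to 895 CPM (median 387) in those of 0 h. The ranges overlapped across lines, but within each of the 5 lines every library of 24 h lay below every library of 0 h. Its mean log2 fold change was -1.03 (SE 0.02, adjusted p = 2.05e-47). SREBF2, the factor that drives sterol genes, ranged from 134 to 281 CPM (median 229) at 24 h and from 201 to 301 CPM (median 264) at 0 h, and fell by 0.32 on the log2 scale (adjusted p = 1e-18). SCAP changed by -0.09 (adjusted p = 0.00667), a call that ended without the line AC1.112 (-0.06, adjusted p = 0.0713). SCAP ranged from 137 to 212 CPM (median 164) at 24 h and from 141 to 242 CPM (median 159) at 0 h, with wide overlap. SREBF1 ranged from 11.8 to 34.4 CPM (median 14.2) at 24 h and from 11.4 to 22.7 CPM (median 18.6) at 0 h, and INSIG2 from 12.5 to 18.6 CPM (median 16.5) at 24 h and from 15.2 to 18.3 CPM (median 16.3) at 0 h. SREBF1 had -0.09 (adjusted p = 0.0621) and INSIG2 -0.04 (adjusted p = 0.326), and neither passed.

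Of the 7 mevalonate pathway genes 5 were lower at 24 h. HMGCS1 ranged from 277 to 566 CPM (median 392) in the libraries of 24 h and from 454 to 978 CPM (median 631) in those of 0 h, with all libraries of 24 h below those of 0 h within each line, and its log2 fold change was -0.67 (SE 0.02, adjusted p = 6.78e-39). FDPS, which makes farnesyl diphosphate, ranged from 115 to 191 CPM (median 135) at 24 h and from 141 to 219 CPM (median 190) at 0 h and fell by 0.38 (SE 0.02). The isomerase gene IDI1 fell by 0.27 and the decarboxylase gene MVD by 0.25. ACAT2, the thiolase that starts the pathway, had -0.06, a call that ended without AC1P (-0.05) and without 293F 0 h replicate 1 (-0.055), AC1.230 24 h replicate 3 (-0.056) or AC1.203 24 h replicate 3 (-0.05), and its mean was above 0 without AC1.230 (0.04) or 293F (0.06). The kinases MVK (0.03) and PMVK (-0.02) did not pass.

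Further down the sterol branch, FDFT1, the squalene synthase, fell by 0.285 and LSS, which closes the ring to lanosterol, by 0.37, while SQLE (-0.02, adjusted p = 0.507) did not pass. Of the 8 genes between lanosterol and cholesterol 4 were lower and 1 higher. TM7SF2, a sterol C14 reductase, ranged from 3.46 to 21.5 CPM (median 5.31) at 24 h and from 3.48 to 40.4 CPM (median 6.49) at 0 h and fell by 0.38 (SE 0.05). MSMO1, a sterol methyl oxidase, had -0.18, but without 293F its mean was 0.02 (adjusted p = 0.623). EBP, the sterol isomerase, fell by 0.16. SC5D, the desaturase, had -0.10, a call that ended without AC1.203 (-0.06). CYP51A1, NSDHL and HSD17B7 had -0.07, -0.055 and -0.09 and did not pass.

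The 1 higher gene of this stretch was DHCR7, the last reductase, with 0.08 (adjusted p = 0.0288), and it rested on AC1.203, without which it was -0.02. That call also ended without AC1P (0.05) and without any of 14 single libraries, with values of 0.06 to 0.08. These were AC1.112 0 h replicate 3 and 24 h replicates 1 and 2, AC1.203 0 h replicate 1 and 24 h replicates 2 and 3, AC1.230 0 h replicates 1 and 2 and 24 h replicates 2 and 3, AC1P 0 h replicate 2 and 24 h replicate 2, and 293F 0 h replicate 1 and 24 h replicate 2.

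All 4 genes of fatty acid synthesis were lower at 24 h. FASN ranged from 330 to 764 CPM (median 505) at 24 h and from 465 to 836 CPM (median 686) at 0 h and fell by 0.38 (SE 0.02). ACACA, the carboxylase that makes malonyl-CoA, fell by 0.27, ACSS2, which makes acetyl-CoA out of acetate, by 0.22, and ACLY by 0.19. Among the elongase and desaturases ELOVL6 fell by 0.26 and FADS2 by 0.22, and SCD had -0.19, a call that ended without 293F (-0.06, adjusted p = 0.0684). FADS1, the delta-5 desaturase, went the other way. It ranged from 80.7 to 310 CPM (median 166) at 24 h and from 65.7 to 247 CPM (median 160) at 0 h, and rose by 0.18 (SE 0.02).

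LPIN1, a phosphatidate phosphatase, rose by 0.24 (SE 0.03, adjusted p = 4.58e-10). It ranged from 40.4 to 51.9 CPM (median 47.2) at 24 h and from 29.8 to 44.6 CPM (median 39.6) at 0 h, and within each line all libraries of 24 h lay above those of 0 h. MYLIP ranged from 9.78 to 17.4 CPM (median 13.2) at 24 h and from 6.58 to 14.6 CPM (median 11.5) at 0 h and rose by 0.38 (SE 0.04). ABCA1 ranged from 0.455 to 2.3 CPM at 24 h and from 0.27 to 1.9 CPM at 0 h, with 730 counts over the 15 libraries of 24 h and 518 over those of 0 h. Its log2 fold change was 0.43 (SE 0.13), and the call ended without 293F (0.33, adjusted p = 0.074). ABCG1 had 0.195 (adjusted p = 0.201) and did not pass. The sterol carrier gene STARD4 fell by 0.28 (SE 0.04).

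At 72 h more of the genes were called. In the mean over lines 28 of the 36 were lower than at 0 h and 5 higher, where 59.8% of all genes were called, 29.5% lower and 30.3% higher. The median log2 fold change was -0.17 for the 36 genes and 0.03 for all genes. The comparisons of 24 h and of 72 h share the 0 h libraries. All 7 mevalonate pathway genes and all 3 from squalene synthesis to lanosterol were lower. So were 7 of 8 between lanosterol and cholesterol and all 4 of fatty acid synthesis.

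INSIG1 again had the lowest change, -0.53 (SE 0.02, adjusted p = 1.23e-31), at 193 to 511 CPM (median 277) in the libraries of 72 h. HMGCS1 changed by -0.42 (SE 0.02) at 369 to 689 CPM (median 528). For both, every library of 72 h lay below every library of 0 h of its line. NSDHL, a sterol dehydrogenase, ranged from 12.1 to 46.5 CPM (median 33.9) at 72 h and from 14.4 to 73.5 CPM (median 42.7) at 0 h, and fell by 0.39 (SE 0.03), again with no overlap within any line. SC5D ranged from 40 to 70.1 CPM (median 57.3) at 72 h and from 49 to 99.9 CPM (median 73.6) at 0 h and fell by 0.33 (SE 0.03), as did EBP, at 38 to 76.8 CPM (median 62.7) at 72 h and 43.7 to 96.1 CPM (median 77.4) at 0 h. For EBP the times did not overlap within any line, and for SC5D they did not in 3 of the 5 lines. SREBF2 fell by 0.11 and SCAP by 0.11, and INSIG2 had -0.09, a call that ended without AC1.203 (-0.065) or 293F (-0.06). SREBF1 had 0.01 and did not pass.

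Calls at 72 h that rested on 1 line were MVK, -0.11 and -0.07 without AC1.230, MSMO1, -0.17 and -0.055 without 293F, and HSD17B7, -0.16 and -0.03 without 293F. ACACA had -0.07 and lost its call without AC1.230 (-0.02), AC1P (-0.065, adjusted p = 0.0684) or 293F (-0.03). 

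ABCA1, ABCG1 and MYLIP were higher at 72 h. ABCA1 ranged from 0.625 to 4.11 CPM (median 1.65) at 72 h and from 0.27 to 1.9 CPM (median 0.806) at 0 h, and its log2 fold change was 1.113 (SE 0.13, adjusted p = 1.91e-11), from 1309 counts over the libraries of 72 h and 518 over those of 0 h. ABCG1 ranged from 0.965 to 5.03 CPM (median 2.07) at 72 h and from 0.288 to 2.3 CPM (median 1.32) at 0 h, with a log2 fold change of 1.04 (SE 0.12, adjusted p = 1.88e-11). These were the 2 members past 2-fold, which 6.6% of all genes passed. Within each line all libraries of 72 h lay above those of 0 h for ABCG1, whereas for ABCA1 they overlapped in AC1.230. MYLIP rose by 0.40 (SE 0.04), at 9.85 to 19.4 CPM (median 13.9) at 72 h, and LPIN1 by 0.20 (SE 0.03). TM7SF2 was also higher at 72 h, by 0.24 (SE 0.05), but its call ended without AC1.230 (0.11, adjusted p = 0.0678). FADS1 (-0.03) and STARD4 (-0.04) did not pass.

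**Figure D1:**
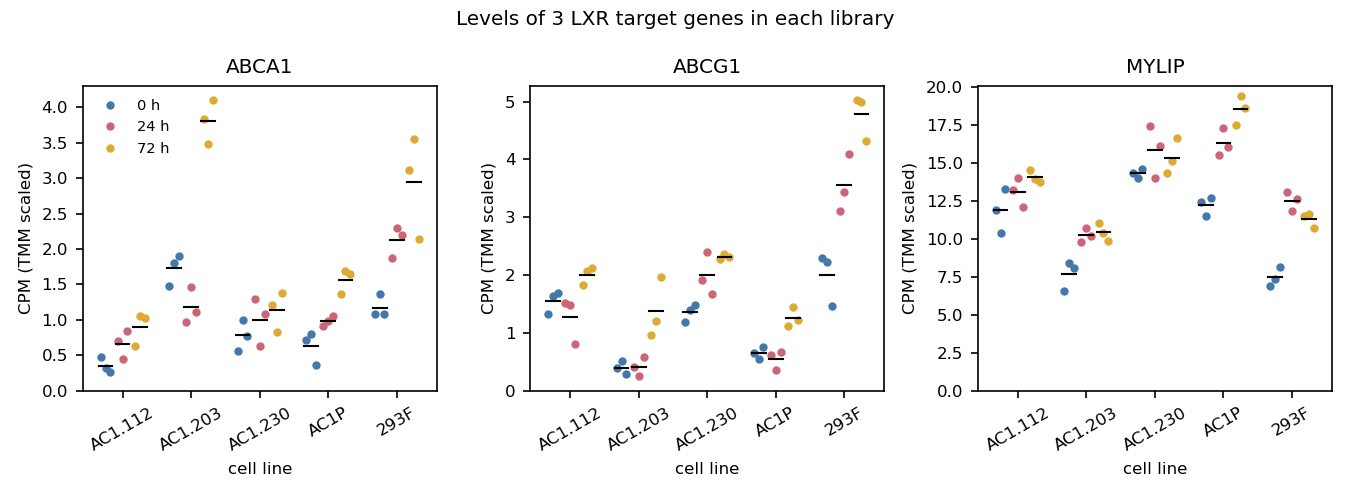
Level in CPM (TMM scaled, vertical axis from 0) of ABCA1, ABCG1 and MYLIP in each library, by cell line on the horizontal axis and by time in colour (0 h, 24 h and 72 h in that order within a line). Points are libraries and black bars are means of 3; ABCG1 at 72 h lies above 0 h in every line, and reaches 4.32 to 5.03 CPM in 293F.

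Between 24 h and 72 h the genes did not move together. Of the 36, 11 were lower at 72 h than at 24 h and 14 higher, where 58% of all genes were called (28.7% lower and 29.3% higher), and the median was -0.01 for the 36 genes and 0.03 for all. This comparison shares its libraries with the 2 before it. INSIG1 was 0.50 higher on the log2 scale (SE 0.02), TM7SF2 0.62 (SE 0.05), LSS 0.27, HMGCS1 0.25, STARD4 0.24 and SREBF2 0.21. ABCG1 was 0.84 higher and ABCA1 0.68. NSDHL was lower by 0.33, DHCR7 by 0.28, PMVK and ACAT2 by 0.26, SC5D by 0.23, SQLE by 0.22 and FADS1 by 0.21.

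The next question was whether the 5 lines responded alike. The test of the line by time interaction was called for 31 of the 36 genes at 24 h, where 43.9% of all genes were called, and for 24 of 36 at 72 h, where 23.2% were. At 24 h it had the smallest adjusted p for HMGCS1 (4.81e-32), INSIG1 (1.19e-31), SCD (2.45e-20) and MSMO1 (7.43e-20), and at 72 h for HMGCS1 (4.78e-13), IDI1 (2.62e-11), INSIG1 (1.68e-09) and MSMO1 (3.71e-08). The call of MSMO1 at 72 h ended without 293F (adjusted p = 0.119).

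In 293F at 24 h, 24 of the 36 genes were lower and 6 higher, where 41.9% of all genes were called (22.1% lower and 19.8% higher), with a median of -0.37 for the 36 genes and -0.01 for all. INSIG1 stood at 208, 210 and 217 CPM in the 24 h libraries of 293F and at 860, 895 and 892 CPM in its 0 h libraries, a log2 fold change of -2.06 (SE 0.05). HMGCS1 stood at 280, 277 and 278 CPM at 24 h and at 978, 910 and 943 CPM at 0 h (-1.76, SE 0.04). In both genes the 2 sets of libraries were far apart, and the replicates of a time lay close together. MSMO1 had 114, 102 and 105 CPM at 24 h and 202, 212 and 199 CPM at 0 h (-0.94, SE 0.06). SCD had 970, 983 and 922 CPM at 24 h and 1470, 1650 and 1640 CPM at 0 h (-0.73, SE 0.05). IDI1 had 117, 109 and 107 CPM at 24 h and 208, 196 and 188 CPM at 0 h (-0.83, SE 0.05). All 3 were lower at 24 h with no overlap. The genes that rose in 293F at 24 h were ABCA1 (0.85), ABCG1 (0.83), MYLIP (0.75), SREBF1 (0.40), FADS1 (0.39) and LPIN1 (0.27).

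The response of 293F at 24 h was then set against the mean response of the other 4 lines, a contrast chosen after the line values were seen. It was lower for 19 genes and higher for 4, where 24.4% of all genes were called (13.5% lower and 10.9% higher), with a median difference of -0.30 for the 36 genes and -0.01 for all. The difference was -1.37 for HMGCS1 (SE 0.05), -1.29 for INSIG1 (SE 0.05), -0.95 for MSMO1 (SE 0.06), -0.70 for IDI1 (SE 0.06), -0.67 for SCD (SE 0.06) and -0.58 for SREBF2 (SE 0.06). FADS1 (0.26) and SREBF1 (0.60) were among the higher.

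AC1.203 differed from the rest in another way. At 24 h 11 of the 36 genes were lower and 11 higher in it, where 41.9% of all genes were called (20.8% lower and 21% higher), and the median was 0.00 for the 36 genes and -0.01 for all. INSIG1 stood at 285, 296 and 287 CPM at 24 h and at 682, 668 and 690 CPM at 0 h (-1.233, SE 0.05), and so fell steeply. SCD, in contrast, stood at 752, 804 and 770 CPM at 24 h and at 600, 603 and 621 CPM at 0 h (0.35, SE 0.05). SREBF1 stood at 29.1, 29.4 and 34.4 CPM at 24 h and at 22.7, 20.6 and 20.2 CPM at 0 h (0.55, SE 0.09), and both rose with no overlap. ACAT2 (0.55), DHCR7 (0.50), MVK (0.44), FADS1 (0.35), LPIN1 (0.35) and ACLY (0.23) rose as well, as did NSDHL, SQLE and MYLIP. Of the genes that rose, SCD, MVK, ACLY and NSDHL were called higher in no other line. The rest were also called higher elsewhere. LPIN1 was in AC1.112 (0.21), AC1P (0.23) and 293F (0.27), and FADS1 in 293F (0.39) and AC1.230 (0.18). SREBF1 was in 293F (0.40), ACAT2 in AC1.112 (0.205) and DHCR7 in AC1P (0.20). SQLE was in AC1P (0.24), and MYLIP in AC1P (0.42) and 293F (0.745). LPIN1 did not pass in the contrast that follows (0.14). Against the mean response of the other 4 lines, also a contrast chosen after the values were seen, AC1.203 was higher for 18 genes and lower for 6, where 26.7% of all genes were called (14.9% higher and 11.8% lower), with a median of 0.18 for the 36 genes and -0.02 for all. The difference was 0.79 for SREBF1, 0.76 for ACAT2, 0.68 for SCD, 0.525 for DHCR7, 0.52 for ACLY and 0.51 for MVK. ABCA1 had -1.22 (SE 0.31). The count of lower genes was 3 without AC1.203 24 h replicate 3, and 4 without its 0 h replicate 1 or 3, its 24 h replicate 2, AC1.112 24 h replicate 2, AC1P 24 h replicate 3, or the third 0 h library of AC1.230 or 293F. SC5D, TM7SF2 and MSMO1 were the lower genes lost without AC1.203 24 h replicate 3.

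AC1.230 had 23 genes lower and 1 higher at 24 h, where 26.9% of all genes were called (14.7% lower and 12.1% higher), with a median of -0.24 for the 36 genes and 0.01 for all. INSIG1 stood at 181, 202 and 187 CPM at 24 h and at 374, 366 and 371 CPM at 0 h (-0.97, SE 0.05), and HMGCS1 at 566, 546 and 552 CPM at 24 h and at 934, 946 and 915 CPM at 0 h (-0.75, SE 0.04). SREBF1 stood at 13, 12.9 and 13.4 CPM at 24 h and at 20.9, 18.6 and 19.5 CPM at 0 h (-0.58, SE 0.09). All 3 were lower at 24 h with no overlap.

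The changes were smaller in AC1.112 and AC1P, where 11 genes were lower and 5 higher in each at 24 h. Of all genes 23.4% were called in AC1.112 (12.6% lower and 10.8% higher) and 19.4% in AC1P (9.5% lower and 9.85% higher), and the medians of the 36 genes were -0.09 in AC1.112 and -0.07 in AC1P. INSIG1 stood at 256, 271 and 244 CPM at 24 h and at 387, 393 and 386 CPM at 0 h in AC1.112 (-0.60, SE 0.05), and at 189, 184 and 176 CPM at 24 h and at 230, 217 and 227 CPM at 0 h in AC1P (-0.29, SE 0.05). The groups did not overlap in either line. In AC1P 7 genes were lower and 3 higher without its 0 h replicate 3, and likewise without its 24 h replicate 3. In AC1.112 10 were lower and 1 higher without its 0 h replicate 2 or its 24 h replicate 3. Without its 24 h replicate 1, 12 were lower and 1 higher, and without its 0 h replicate 1, 13 and 2. The counts were 14 and 3 without its 0 h replicate 3 or with DESeq2. Across the 6 fits of AC1.112 without 1 library, 10 to 15 were lower and 1 to 6 higher (11 to 21 calls).

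INSIG1, HMGCS1, LSS and FDPS were called lower at 24 h in all 5 lines, which 2.14% of all genes were. The call of FDPS in AC1.203 (-0.12) ended without its 0 h replicate 1 (-0.07) or 3 (-0.12, adjusted p = 0.0622) or its 24 h replicate 3 (-0.09). No member was called higher in all 5 lines at 24 h or at 72 h, against 2.41% of all genes at 24 h and 3.87% at 72 h. At 24 h 11 of the 36 genes were called lower in at least 1 line and higher in at least 1 other, where 8.16% of all genes were. Of these, ACAT2, SQLE, MSMO1, SREBF1, ACLY and SCD kept calls in both directions when any single library was left out. SQLE, for instance, stood at 358, 350 and 354 CPM at 24 h and at 302, 292 and 306 CPM at 0 h in AC1P (0.24, SE 0.05), but at 187, 200 and 184 CPM at 24 h and at 267, 266 and 265 CPM at 0 h in 293F (-0.48, SE 0.05). The times did not overlap in either line.

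**Figure D2:**
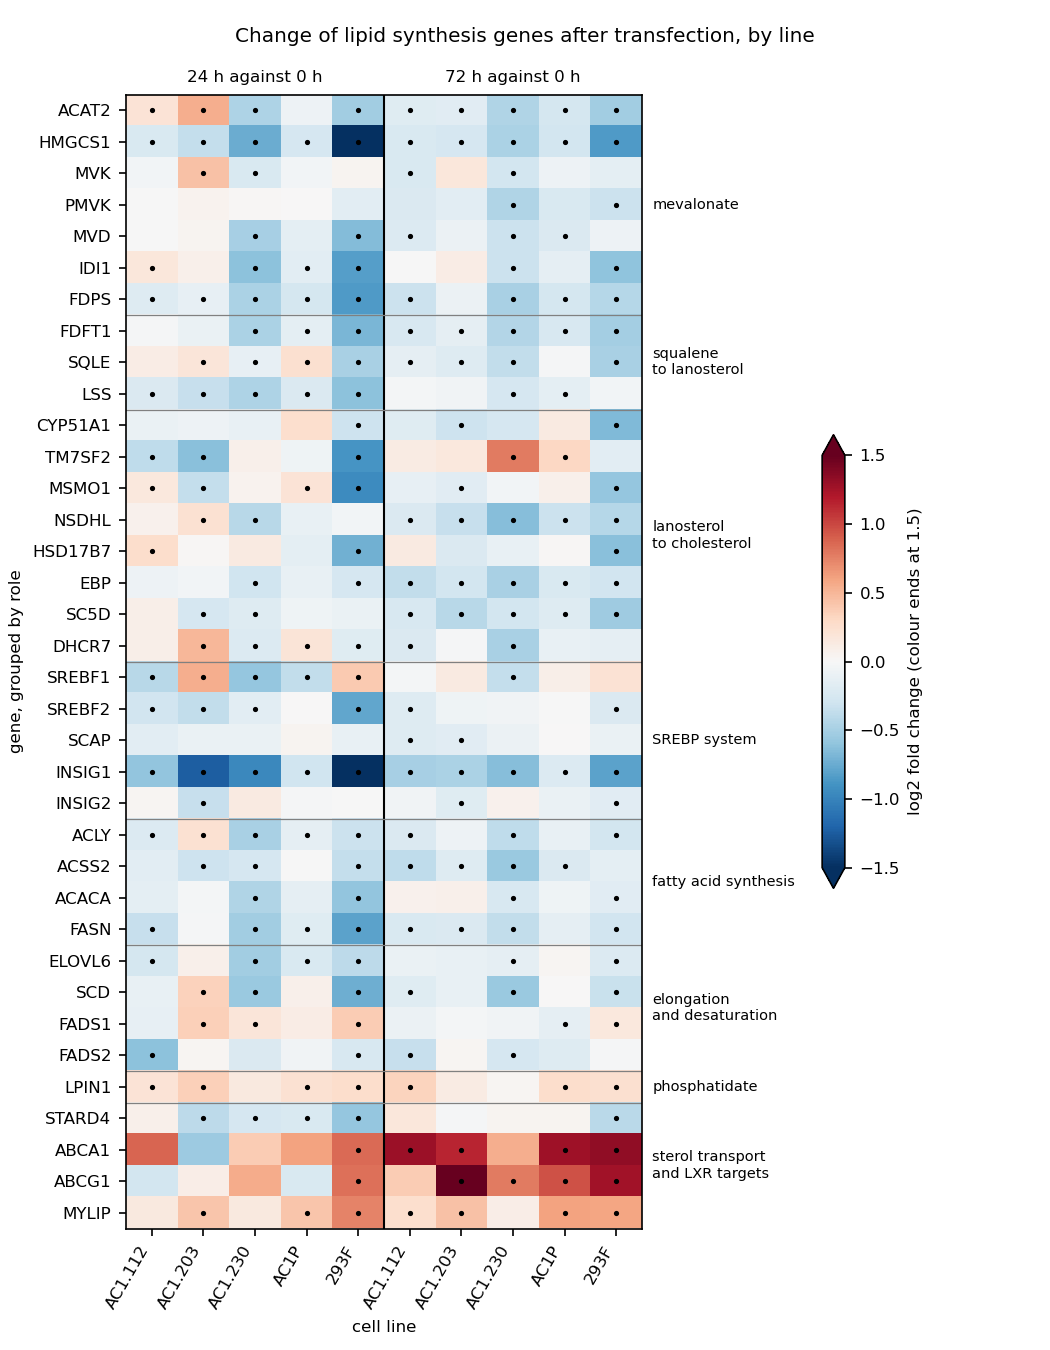
Log2 fold change of each of the 36 genes (rows, grouped by role) at 24 h over 0 h (left) and at 72 h over 0 h (right) in each line (columns). Red is higher, blue lower, the colour ends at 1.5 in both directions and a dot marks an adjusted p under 0.05; the columns of 293F and AC1.230 at 24 h are mostly blue, with 24 and 23 genes called lower.

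At 72 h the lines stood closer together in direction. In each line more genes were lower than higher, with 19 lower and 3 higher in AC1.112, 14 and 3 in AC1.203, 23 and 2 in AC1.230, 12 and 5 in AC1P, and 22 and 5 in 293F. Of all genes, 32.6% were called in AC1.112 (18.4% lower and 14.2% higher), 30.9% in AC1.203 (17% and 13.9%), 39.1% in AC1.230 (22.1% and 17%), 25.9% in AC1P (13.2% and 12.7%) and 40.2% in 293F (21.9% and 18.3%). The median log2 fold change of the 36 genes was -0.19 in AC1.112, -0.10 in AC1.203, -0.28 in AC1.230, -0.10 in AC1P and -0.25 in 293F, and that of all genes lay between 0.00 and 0.02. Against the mean response of the other 4 lines, 293F was lower for 12 genes and higher for 1, where 15.7% of all genes were called (9.39% lower and 6.34% higher), and AC1.203 was called for 7, all of them higher, where 6.19% were called (3.66% higher and 2.52% lower). These 7 calls were 11, again all higher, with no filter on low counts. In AC1P the higher genes were 3 without its 0 h replicate 2. The 17 calls in AC1.203 were 10 without its 72 h replicate 3 and 9 when only its 2 groups were fitted. FADS1 alone was called in both directions, higher in 293F (0.16) and lower in AC1P (-0.13), which 2.77% of all genes were, and the call in AC1P ended without its 72 h replicate 3 (-0.125, adjusted p = 0.0892).

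ACAT2, HMGCS1, FDFT1, NSDHL, EBP, SC5D and INSIG1 were called lower at 72 h in all 5 lines, which 6.79% of all genes were. HMGCS1, NSDHL and INSIG1 kept all 5 calls when any single library was left out. In AC1.203 the calls of ACAT2 (-0.17) and FDFT1 (-0.13) ended without its 0 h replicate 1 (-0.12 and -0.085) or its 72 h replicate 3 (-0.12 and -0.11), and that of EBP (-0.28) without its 0 h replicate 1 (-0.15). In AC1P the call of EBP (-0.23) ended without its 72 h replicate 2 (-0.19) or 3 (-0.20), and that of SC5D (-0.20) without replicate 3 (-0.17). INSIG1 at 72 h was at 277, 279 and 267 CPM in AC1.112, 496, 496 and 480 CPM in AC1.203, 246, 245 and 220 CPM in AC1.230, 197, 194 and 193 CPM in AC1P and 511, 491 and 511 CPM in 293F. The 3 libraries of AC1.203 and of 293F were the highest at that time.

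**Figure D3:**
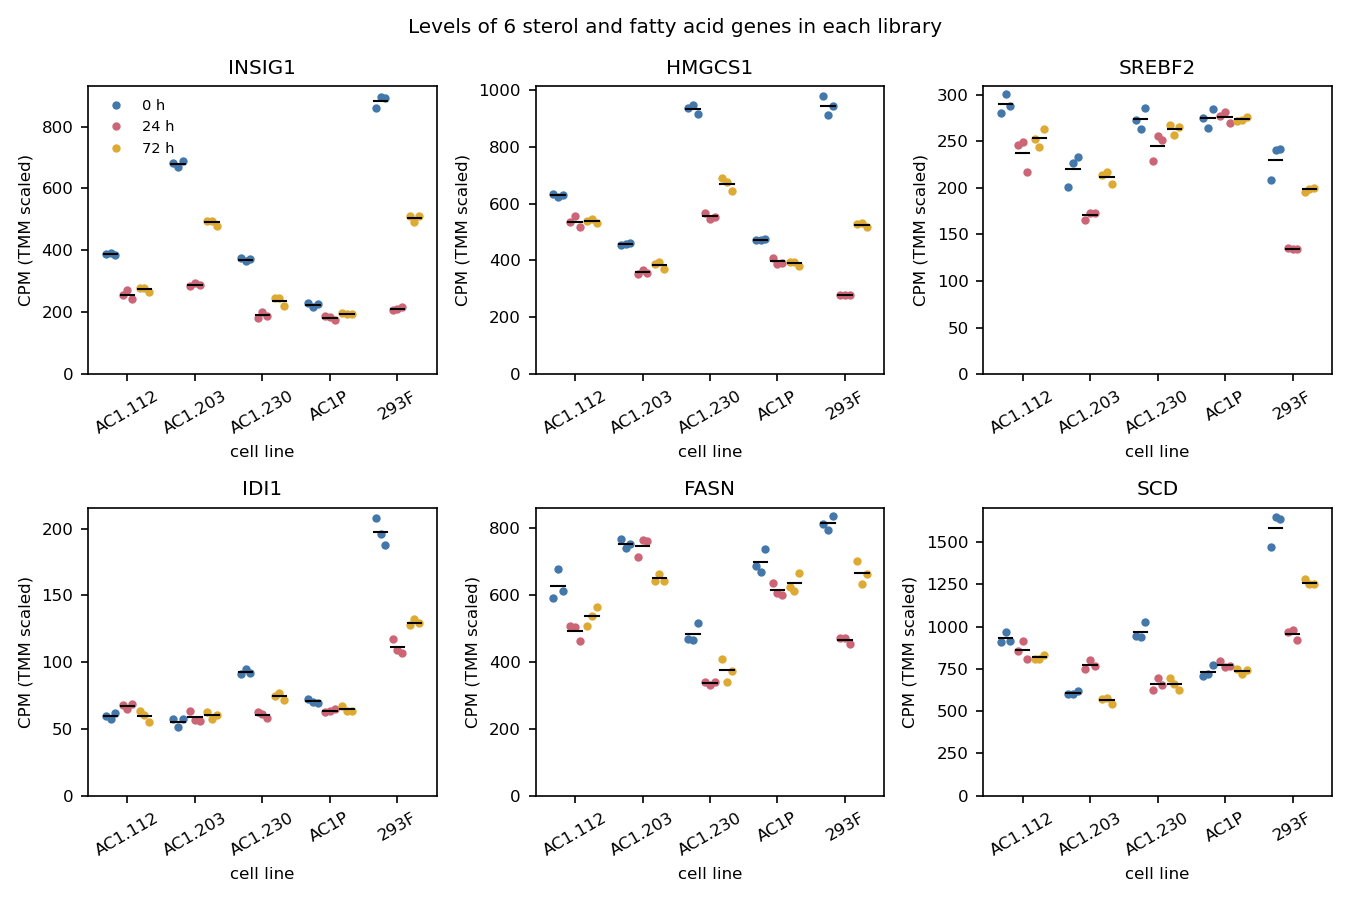
Level in CPM (TMM scaled, vertical axis from 0) of INSIG1, HMGCS1, SREBF2, IDI1, FASN and SCD in each library, by cell line on the horizontal axis and by time in colour (0 h, 24 h and 72 h in that order within a line). Points are libraries and black bars are means of 3; INSIG1 spans 224 to 882 CPM between line means at 0 h and 183 to 289 CPM at 24 h.

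The second design question was how the lines differed before transfection. It rests on the same 0 h libraries as the responses over time, so both sets of results are not independent. HMGCS1, INSIG1, MSMO1, IDI1 and SCD, with a lower 24 h response in 293F, had their highest 0 h mean there. SREBF2 did not. ACAT2, SCD, DHCR7 and MVK, with a higher 24 h response in AC1.203, had their lowest 0 h mean there. SREBF1 had its highest there, and ACLY neither. At 0 h 35 of the 36 genes differed among the 5 lines, where 80.8% of all genes did, and INSIG2 did not pass (adjusted p = 0.167). Among the 36 the adjusted p was smallest for INSIG1 (1.29e-45), FADS1 (3.42e-44), IDI1 (2.44e-43) and TM7SF2 (1.09e-41). The call of PMVK rested on AC1.112, without which the adjusted p was 0.151, and that of ACACA on 293F, without which it was 0.89. The call of LPIN1 ended without AC1.112 (adjusted p = 0.0563), without AC1.203 (0.253) or without AC1.203 0 h replicate 1 (0.101). Of the 36 genes 17 had their highest line mean in 293F, which 32.6% of all genes had, and 15 had their lowest in AC1.203, which 19.7% had.

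Against 293F, AC1.112 had 23 genes lower and 9 higher, AC1.203 had 23 and 3, AC1.230 had 17 and 13, and AC1P had 23 and 6. The 4 comparisons share the 293F libraries. Of all genes 62.6% were called in AC1.112 (32.2% lower and 30.4% higher), 57.8% in AC1.203 (29.6% and 28.2%), 62.1% in AC1.230 (31.6% and 30.5%) and 62.4% in AC1P (32.4% and 30%). The median log2 fold change of the 36 genes was -0.36 in AC1.112, -0.37 in AC1.203, -0.10 in AC1.230 and -0.26 in AC1P, and that of all genes was -0.03, -0.02, -0.03 and -0.04.

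INSIG1 was lower in all 4 AC1 lines than in 293F. It stood at 387, 393 and 386 CPM in AC1.112 (-1.18, SE 0.05), at 682, 668 and 690 CPM in AC1.203 (-0.38, SE 0.05), at 374, 366 and 371 CPM in AC1.230 (-1.25, SE 0.05) and at 230, 217 and 227 CPM in AC1P (-1.98, SE 0.05), against 860, 895 and 892 CPM in 293F. None of the AC1 libraries reached the 293F range. The highest line mean was 3.93 times the lowest at 0 h and 1.58 times at 24 h.

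TM7SF2 had the lowest log2 fold change of the 36 genes in AC1.112, AC1.230 and AC1P. It stood at 6.49, 7.03 and 5.39 CPM in AC1.112, 14.4, 11.4 and 12.3 CPM in AC1.203, 4.08, 3.61 and 3.48 CPM in AC1.230 and 4.88, 4.92 and 4.23 CPM in AC1P, against 40.4, 40.1 and 36.5 CPM in 293F. Its log2 fold changes were -2.62, -1.62, -3.38 and -3.05 (SE 0.10 to 0.11). IDI1 stood at 59.9, 57.5 and 62.1 CPM in AC1.112, 57.6, 51.6 and 57.4 CPM in AC1.203, 91.3, 94.6 and 92 CPM in AC1.230 and 72.8, 70.1 and 69.8 CPM in AC1P, against 208, 196 and 188 CPM in 293F. Its log2 fold changes were -1.72, -1.83, -1.09 and -1.48 (SE 0.05). For both genes the 293F libraries lay above all others.

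Other genes were lower in all 4 AC1 lines too. The log2 fold changes in AC1.112, AC1.203, AC1.230 and AC1P, in that order, were -1.58, -1.08, -1.93 and -1.59 for FADS2, the delta-6 desaturase, -1.39, -0.77, -1.20 and -1.34 for MVD, and -0.77, -1.39, -0.71 and -1.115 for SCD. STARD4 had -0.95, -0.73, -0.79 and -1.05. ACACA, ACLY, ACAT2, MSMO1, HSD17B7 and SC5D were called lower in all 4 lines as well, with values between -0.32 (SC5D in AC1.203) and -1.32 (ACAT2 in AC1.203). ABCG1 was lower in AC1.203 (-2.34, SE 0.30), AC1P (-1.63, SE 0.27) and AC1.230 (-0.57, SE 0.25, adjusted p = 0.0428). It did not pass in AC1.112 (-0.38). ABCA1 was lower in AC1.112 (-1.69, SE 0.32) and AC1P (-0.86, SE 0.29) and did not pass in AC1.203 (0.56) or AC1.230 (-0.60).

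FADS1 was higher in 3 AC1 lines than in 293F. It stood at 184, 187 and 184 CPM in AC1.112 (1.233, SE 0.05), 224, 245 and 247 CPM in AC1.203 (1.60, SE 0.05) and 160, 155 and 163 CPM in AC1P (1.02, SE 0.05), against 76.6, 79.2 and 80.3 CPM in 293F. In AC1.230 it stood at 75.8, 65.7 and 76 CPM, below 293F by a log2 value of -0.12, and that call was lost when AC1.230 0 h replicate 2 was left out (-0.06), and likewise for replicate 2 (-0.12, adjusted p = 0.0601) or 3 (-0.10) of 293F. LSS was higher in AC1.112 (0.94), AC1.230 (1.005) and AC1P (0.81), but lower in AC1.203 (-0.165). SREBF1 was higher in AC1.112 (0.59), AC1.203 (0.65), AC1.230 (0.54) and AC1P (0.25). The call of SREBF1 in AC1P was lost when 293F replicate 1 was left out (0.14, adjusted p = 0.198). SREBF1 stood at 21.2, 20.8 and 18.6 CPM in AC1.112, 22.7, 20.6 and 20.2 CPM in AC1.203, 20.9, 18.6 and 19.5 CPM in AC1.230 and 15.6, 16.5 and 16 CPM in AC1P, against 11.4, 14.9 and 14.2 CPM in 293F, with no overlap.

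SREBF2 and SCAP differed less. SREBF2 averaged 290 ± 10.6 CPM in AC1.112, 221 ± 16.8 in AC1.203, 274 ± 11.4 in AC1.230 and 275 ± 10.6 in AC1P, against 231 ± 19.2 in 293F (SD, n = 3 each), and was higher in AC1.112 (0.33), AC1.230 (0.25) and AC1P (0.25) than in 293F. SCAP averaged 224 ± 18.7 CPM in AC1.112, against 152 ± 10.2 in 293F (0.56, SE 0.06). It was also higher in AC1.230 (0.18, SE 0.06) and did not pass in AC1.203 (-0.01) or AC1P (0.09). INSIG2 averaged 17.7 ± 0.6 CPM in AC1.112, 16.2 ± 0.903 in AC1.203, 15.5 ± 0.457 in AC1.230 and 16.5 ± 0.178 in AC1P, against 16.1 ± 0.135 in 293F.

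**Figure D4:**
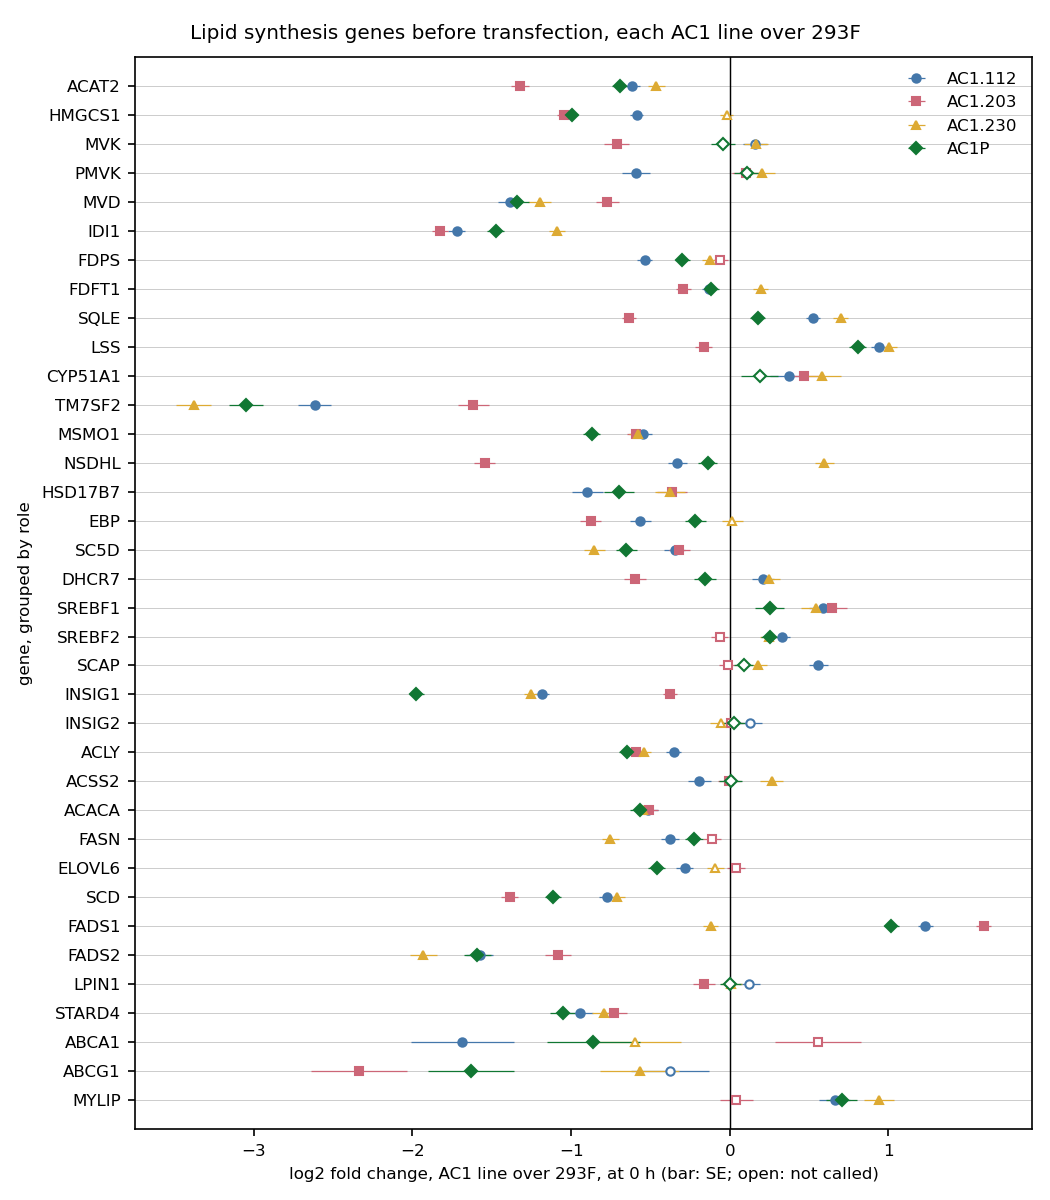
Log2 fold change of each of the 36 genes (rows, grouped by role) in each AC1 line over 293F at 0 h, with bars for the SE and open symbols where the adjusted p was 0.05 or above. TM7SF2 reaches farthest to the left, at -3.38 in AC1.230, and FADS1 farthest to the right in AC1.203, at 1.60.

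The 3 clones were also compared with the polyclonal line AC1P at 0 h, in comparisons that share the AC1P libraries. AC1.112 had 7 genes lower and 16 higher, where 26.1% of all genes were called (12.1% lower and 14% higher). AC1.203 had 13 and 14, where 45.1% were called (22% and 23.1%), and AC1.230 had 5 and 22, where 35.8% were (16.5% and 19.2%). AC1.112 had 4 lower and 14 higher without its replicate 3, and AC1.230 had 3 and 15 without its replicate 3. The medians of the 36 genes were 0.11, -0.01 and 0.23, and those of all genes 0.00, 0.02 and 0.02. INSIG1 was higher in all 3 clones, by 0.79 in AC1.112, 1.60 in AC1.203 and 0.72 in AC1.230 (SE 0.05 each). In AC1.203 NSDHL was lower, at 17.3, 14.4 and 16.5 CPM, against 42.2, 42.7 and 43.5 CPM in AC1P (-1.41, SE 0.07), and LSS (-0.97) and SQLE (-0.81) were lower as well. In AC1.230 NSDHL was higher, at 70.1, 69.9 and 73.5 CPM (0.73, SE 0.06), as were HMGCS1 (0.98) and SQLE (0.52), while FADS1 was lower, at 75.8, 65.7 and 76 CPM, against 160, 155 and 163 CPM in AC1P (-1.14, SE 0.05). None of these libraries overlapped between clone and AC1P.

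Over time the spread between lines was smaller than at 0 h for 20 of the 36 genes at 24 h (55.6%, against 49.4% of all genes) and for 24 at 72 h (66.7%, against 47.2%). The median spread, as the SD of the 5 line means on the log2 scale, was 0.348 at 0 h, 0.30 at 24 h and 0.306 at 72 h for the 36 genes, and 0.265 at 0 h, 0.268 at 24 h and 0.276 at 72 h for all genes.

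Other genes of lipid metabolism were counted from 7 further lists with 85 genes, of which IDI2, CH25H and ELOVL3 did not pass the filter. In the mean over lines 42 of the 82 tested were lower and 16 higher at 24 h, and 56 lower and 14 higher at 72 h, with medians of -0.09 at 24 h and -0.14 at 72 h. The shares called, 70.7% at 24 h and 85.4% at 72 h, stand beside 53.4% and 59.8% of all genes (27.6% lower and 25.8% higher at 24 h, 29.5% and 30.3% at 72 h), whose medians were -0.01 and 0.03. Among other enzymes and electron donors of sterol and isoprenoid synthesis 6 of 8 were lower at 24 h (75%), and 7 lower and 1 higher at 72 h. CYB5R3, the cytochrome b5 reductase, fell by 0.30 at 24 h and 0.35 at 72 h, and CYB5A, its partner, by 0.41 at 72 h. FAXDC2 was lower at 24 h (-0.59, SE 0.06) and higher at 72 h (0.36, SE 0.06).

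Of 12 other regulators of SREBP 5 were lower and 2 higher at 24 h, a share of 58.3% that is near that of all genes, and 10 lower and 1 higher at 72 h (91.7%). FBXW7, the ubiquitin ligase subunit that marks nuclear SREBP for decay, rose by 0.40 (SE 0.03) at both times. RNF139, a ubiquitin ligase of the endoplasmic reticulum, fell by 0.34 at 72 h. Of 12 genes of cholesterol trafficking and storage 4 were lower and 4 higher at 24 h, and 5 lower and 3 higher at 72 h, 66.7% at each time. NPC1, which exports cholesterol out of lysosomes, rose by 0.41 at 24 h and 0.22 at 72 h, whereas LIPA, the lysosomal lipase, had -0.22 at 24 h and -0.385 at 72 h. Of the LXR receptor genes and other LXR targets, 3 of 4 were lower at 24 h (75%) and 2 at 72 h (50%), with none higher. LPCAT3, an LXR target that remodels phospholipids, fell by 0.22 at 24 h and had -0.10 at 72 h, a call that ended without AC1.112 (-0.05) or AC1.230 (-0.05). The other call at 72 h, NR1H3 (-0.15), ended without AC1.203, AC1.230 or 293F (-0.14 each). At 24 h the call of SMPDL3A (-0.13) ended without AC1.203 (-0.08), AC1.230 (-0.10) or AC1P (-0.12), or with no filter on low counts (-0.13).

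Of 21 other genes of fatty acid synthesis and elongation 10 were lower and 7 higher at 24 h (81%), and 14 lower and 4 higher at 72 h (85.7%). SLC25A1, the mitochondrial citrate carrier, fell by 0.63 at 24 h and 0.39 at 72 h, and ME1, the malic enzyme that supplies NADPH, by 0.35 at 24 h and 0.42 at 72 h. FADS3 rose by 0.36 at 72 h. ACSL5, called higher at 24 h, had 0 to 27 counts a library and lost the call when the first 24 h library of AC1.230 (adjusted p = 0.0538) or of AC1.203 (0.0511) was left out. Of 16 genes of glycerolipid synthesis and lipid droplets 6 were lower and 3 higher at 24 h, a share of 56.2% that is near that of all genes, and 10 lower and 4 higher at 72 h (87.5%). PLIN3, a lipid droplet coat protein, had -0.385 at 24 h and -0.34 at 72 h, and the choline kinase gene CHKA rose by 0.41 at 24 h and 0.23 at 72 h. Of 9 genes of fatty acid oxidation 8 were lower at 24 h (88.9%), and 8 lower and 1 higher at 72 h (all 9). CPT1C, a carnitine palmitoyltransferase of the endoplasmic reticulum, fell by 0.93 (SE 0.09) at 24 h and 0.62 (SE 0.09) at 72 h. ACADVL, the very long chain acyl-CoA dehydrogenase, was lower at 24 h (-0.47) and higher at 72 h (0.235).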

How the data were processed

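Whole-number read counts per gene were deposited for 45 libraries. Per the submitters' processing notes the tools were HISAT2 and Subread featureCounts and the build was GRCh38; no source used here gives their versions or the strand setting. Symbols were matched by Ensembl ID to GENCODE release 29. The members and gene lists were chosen with earlier results of these data known.

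From these counts edgeR 4.0.16 (R 4.3.3) was run on the 21242 genes that passed filterByExpr (minimum count 10, minimum total 15), with TMM scaling and a robust quasi-likelihood fit of 15 groups of 3 libraries. P-values were Benjamini-Hochberg adjusted over all genes tested, and a call is an adjusted p under 0.05. Each SE was worked back from the quasi-likelihood test, as the absolute log2 fold change divided by the square root of its F statistic. Total counts were 24727028 to 59837051, so the precision of ABCA1 and ABCG1 is limited by counts of 7 to 66 and 10 to 101 a library at 0 h. The scripts were tested on simulated counts. Values by library or range are given for the SREBP system, for the 4 highest and 4 lowest called changes of the mean over lines at 24 h and 72 h, and for the 4 smallest p-values of each interaction test and of the test among lines; genes of the other lists are taken from the 2 highest and 2 lowest called changes per list and time. SQLE is shown by library as an example outside these rules. The contrasts of 293F and of AC1.203 with the other lines were chosen after seeing the data. Alternatives were RLE scaling, DESeq2 1.42.0, no filter, a replicate block, fits without each library or line, and fits of only the 2 groups compared.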

Additional observations from a re-analysis of the deposited data

Results flagged for a closer look

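The response differed among the 5 lines by the interaction test of edgeR's quasi-likelihood fit, and these genes were either called in opposite directions in different lines or among the 4 smallest p-values of their time. At 24 h the adjusted p was 4.81e-32 for HMGCS1, 1.19e-31 for INSIG1, 2.45e-20 for SCD, 7.43e-20 for MSMO1, 1.45e-19 for IDI1 and 2.91e-19 for ACAT2. It was 3.69e-15 for SQLE, 2.19e-13 for SREBF1, 9.71e-13 for ACLY, 7.47e-08 for HSD17B7, 1.76e-07 for DHCR7, 2.02e-07 for NSDHL and 1.51e-05 for MVK. At 72 h it was 4.78e-13 for HMGCS1, 2.62e-11 for IDI1, 1.68e-09 for INSIG1, 3.71e-08 for MSMO1 and 0.00486 for FADS1. At 24 h the adjusted p was 0.164 for MVK without AC1.203 and 0.0967 for HSD17B7 without 293F. At 72 h it was 0.119 for MSMO1 and 0.655 for FADS1 without 293F.

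For 5 of the 11 genes called in both directions at 24 h a call of one direction rested on single libraries. MVK in AC1.230 (-0.23) lost its call without 0 h replicate 3 (-0.20) or 24 h replicate 1 (-0.195) or 2 (-0.21). IDI1 in AC1.112 (0.165) lost it without 0 h replicate 1 (0.15) or 2 (0.12) or 24 h replicate 1 or 3 (0.13 each). NSDHL in AC1.203 (0.225) lost it without 0 h replicate 2 (0.16). HSD17B7 in AC1.112 (0.27) lost it without any of 5 of its 6 libraries (0.21 to 0.28). DHCR7 in AC1.230 (-0.21) lost it without 0 h replicate 3 (-0.125) or 24 h replicate 1 (-0.13), and in 293F (-0.19) without 0 h replicate 2 (-0.12) or 3 (-0.18) or 24 h replicate 1 or 3 (-0.17 each).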

How the results depend on the processing

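Of 652 calls of a member in 27 comparisons, 508 were kept under every alternative run and 144 were lost under at least 1. The losses were 113 without 1 library, 44 without 1 line, 33 with no filter, 26 with only the 2 groups compared, 9 with RLE scaling and 5 with DESeq2. Counts of called members at 24 h over lines were 25 to 29 without 1 library, at 72 h 33 to 34, and between 24 h and 72 h 23 to 25. At 24 h in AC1P 16 calls became 10 to 13 without 1 library, and at 72 h in AC1.203 17 became 10 to 18 without 1 library and 9 with only its 2 groups fitted. Against the mean response of the other 4 lines at 72 h, 293F had 12 to 15 calls without 1 library in place of 13, and AC1.203 had 5 to 8 in place of 7 and 11 with no filter. The sign turned at 24 h for ACAT2 without AC1.230 (0.04) or 293F (0.056), MSMO1 without 293F (0.019) and DHCR7 without AC1.203 (-0.023), and between 24 h and 72 h for FDPS without 293F (-0.017) and SREBF1 without AC1P (0.00). The cause was not tested. RLE scaling moved the median of all genes by at most 0.033. Same-numbered libraries did not deviate together (57 pairs, correlation -0.067 to 0.052, and 15 of 45 libraries closest to their own number), and with the replicate block the counts over lines were 27 at 24 h, 33 at 72 h and 25 between them. Depth limits ABCA1 and ABCG1.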
